A study of Mus musculus with 22 samples.

Results

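The genes described here are 10 mouse genes that brake or drive cell proliferation: the cyclin-dependent kinase inhibitors Cdkn1a, Cdkn1b and Cdkn1c, the antiproliferative genes Btg1 and Btg2, the stress response genes Gadd45a, Gadd45b and Gadd45g, and the growth-promoting genes Ccnd1 and Myc. Every chromatin immunoprecipitation sequencing (ChIP-seq) region whose centre lay within 100 kb of an annotated start of one of them was taken, whatever other gene lay nearer. This gave 840 of the 360258 regions in 22 lists, of which 309 belonged to the 12 transcription factor lists and 531 to the 10 histone lists. The annotation held 22208 protein-coding genes, and all 10 genes were found in it.

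The cells were MC3T3-E1, a mouse pre-osteoblastic line. Differentiated cells had been kept for 15 days with ascorbic acid and glycerol-2-phosphate, and undifferentiated cells without them. Cells of either state received 100 nM calcitriol, the hormonal form of vitamin D, or the ethanol vehicle, for 3 h. VDR, the vitamin D receptor, and RXR, the retinoid X receptor, were mapped with calcitriol and with vehicle. The factors C/EBPβ and RUNX2 and the histone modifications H3K4me3, H3K9ac, H4K5ac, H3K4me1 and H3K36me3 were used with calcitriol, so for these the states are compared and the hormone is not. Each group had 1 list, taken to hold regions shared by the authors' replicates, so no spread between cultures could be measured and no difference below carries a test. Intervals given with shares cover counting error only, and depth is unknown because the lists hold no read counts. Mineralized matrix was removed from differentiated cultures by homogenising them and spinning them through sucrose, so preparation and state cannot be told apart. The line is clonal in origin, and passages 5 to 12 were used. The protocol text names H3K5Ac where the sample labels give H4K5ac, and the labels were followed. Of 9 osteoblast markers, 6 had an H3K4me3 region within 1 kb of a start in each state, among them Runx2, Sp7 and Col1a1, and Alpl, Bglap and Ibsp had none. None of the 5 adipocyte, 4 skeletal muscle or 5 blood markers had one in either state, and of 4 chondrocyte markers Col2a1 had one in undifferentiated cells. An H3K9ac region was at a start of 7 osteoblast markers, Alpl included, and of the chondrocyte markers Col2a1 and Comp in each state, and of none of the other 3 lists.

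Calcitriol binds VDR, which pairs with RXR and attaches to DNA at a direct repeat of 6-base half-sites separated by 3 bases (DR3). RUNX2 and C/EBPβ are regulators of osteoblast genes that are often found at the same enhancers. In bone-forming cells, as in many others, the hormone is known to slow proliferation, and withdrawal from the cell cycle accompanies osteoblast maturation. The proteins p21, p27 and p57, encoded by Cdkn1a, Cdkn1b and Cdkn1c, hold back the cyclin-dependent kinases, whereas cyclin D1 (Ccnd1) activates such kinases and the transcription factor MYC drives growth.

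VDR sites that held a DR3 match with at most 1 mismatch in the 200 bp around their centre are shown first, because they include every VDR site called near these genes in both states. Sequences are the mm9 forward strand of the site called in undifferentiated cells with calcitriol, and capitals mark the match. Positions are in kb from the nearest annotated start of the gene, negative where upstream. The 4 sites called in both states were chr6:134794340-134794540 at -76.0 kb of Cdkn1b, inside an intron of the neighbouring gene Crebl2, chr1:135899497-135899697 at +76.1 kb of Btg2, in intergenic DNA nearest to Fmod, chr15:61899854-61900054 at +81.0 kb of Myc, inside the long non-coding RNA gene Pvt1, and chr6:67078521-67078721 at -91.2 kb of Gadd45a, inside the non-coding gene A430010J10Rik. The match lay on the forward strand at Cdkn1b and Myc and on the reverse strand at Btg2 and Gadd45a. The fifth site, chr15:61857810-61858010 at +38.9 kb of Myc with a match on the reverse strand, was called in undifferentiated cells alone. Cdkn1a had a single VDR site, chr17:29215874-29216074 at -11.95 kb, with no DR3 match; it was added after its values were seen, and its capitals mark single half-sites, that is AGGTCA, with G also allowed as the first base and T as the third. Such half-sites were found on either strand in 76.0% of the 25 VDR sites near these genes in undifferentiated cells with calcitriol, in 56% of the whole list of 7000, and in 37.1% of equally long windows 2 kb to either side, so a half-site alone is common.
Cdkn1b, -76.0 kb: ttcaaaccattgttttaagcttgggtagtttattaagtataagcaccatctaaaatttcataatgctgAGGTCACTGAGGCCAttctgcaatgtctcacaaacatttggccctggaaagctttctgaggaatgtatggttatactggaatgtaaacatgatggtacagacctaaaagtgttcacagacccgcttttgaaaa
Btg2, +76.1 kb: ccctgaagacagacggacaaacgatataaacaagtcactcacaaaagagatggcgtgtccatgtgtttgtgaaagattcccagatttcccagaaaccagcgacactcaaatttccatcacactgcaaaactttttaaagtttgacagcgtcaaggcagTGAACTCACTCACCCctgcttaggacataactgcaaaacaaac
Myc, +81.0 kb: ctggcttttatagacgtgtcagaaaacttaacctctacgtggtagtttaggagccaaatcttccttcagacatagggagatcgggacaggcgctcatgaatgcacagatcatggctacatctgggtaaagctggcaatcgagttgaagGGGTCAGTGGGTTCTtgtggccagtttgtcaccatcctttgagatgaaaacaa
Gadd45a, -91.2 kb: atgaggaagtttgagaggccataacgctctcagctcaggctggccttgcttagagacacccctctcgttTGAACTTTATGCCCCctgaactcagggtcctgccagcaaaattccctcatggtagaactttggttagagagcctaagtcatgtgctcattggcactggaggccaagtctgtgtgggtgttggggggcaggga
Myc, +38.9 kb: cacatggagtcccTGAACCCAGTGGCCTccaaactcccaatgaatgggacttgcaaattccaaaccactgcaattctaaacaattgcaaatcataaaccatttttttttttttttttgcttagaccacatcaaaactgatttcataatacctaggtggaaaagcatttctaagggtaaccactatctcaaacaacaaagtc
Cdkn1a, -11.95 kb: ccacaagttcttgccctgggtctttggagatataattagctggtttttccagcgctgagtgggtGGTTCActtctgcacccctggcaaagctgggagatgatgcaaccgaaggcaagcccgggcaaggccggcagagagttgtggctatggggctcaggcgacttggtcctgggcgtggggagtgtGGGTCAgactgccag

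In undifferentiated cells, VDR was found at more sites near these genes with calcitriol than with vehicle. There were 25 VDR sites with calcitriol and 6 with vehicle, in lists of 7000 and 937 sites. At least 1 site was present near 9 of the 10 genes with calcitriol, against 40.9% of all genes, and near 4 with vehicle, against 15.7%. Cdkn1b held 8 with calcitriol and 3 with vehicle, Btg2 held 4 and 0, Btg1 held 3 and 1, Myc held 3 and 0, Gadd45a and Ccnd1 held 2 and 0 each, Cdkn1a held 1 and 0, Gadd45b and Gadd45g held 1 and 1 each, and Cdkn1c held 0 in both. Thus 7 genes had more sites with calcitriol than with vehicle, none had fewer and 3 had the same number, whereas 32.9% of all genes had more. Counts of 8 or more VDR sites, as at Cdkn1b, were reached by 0.761% of all genes.

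**Figure D1:**
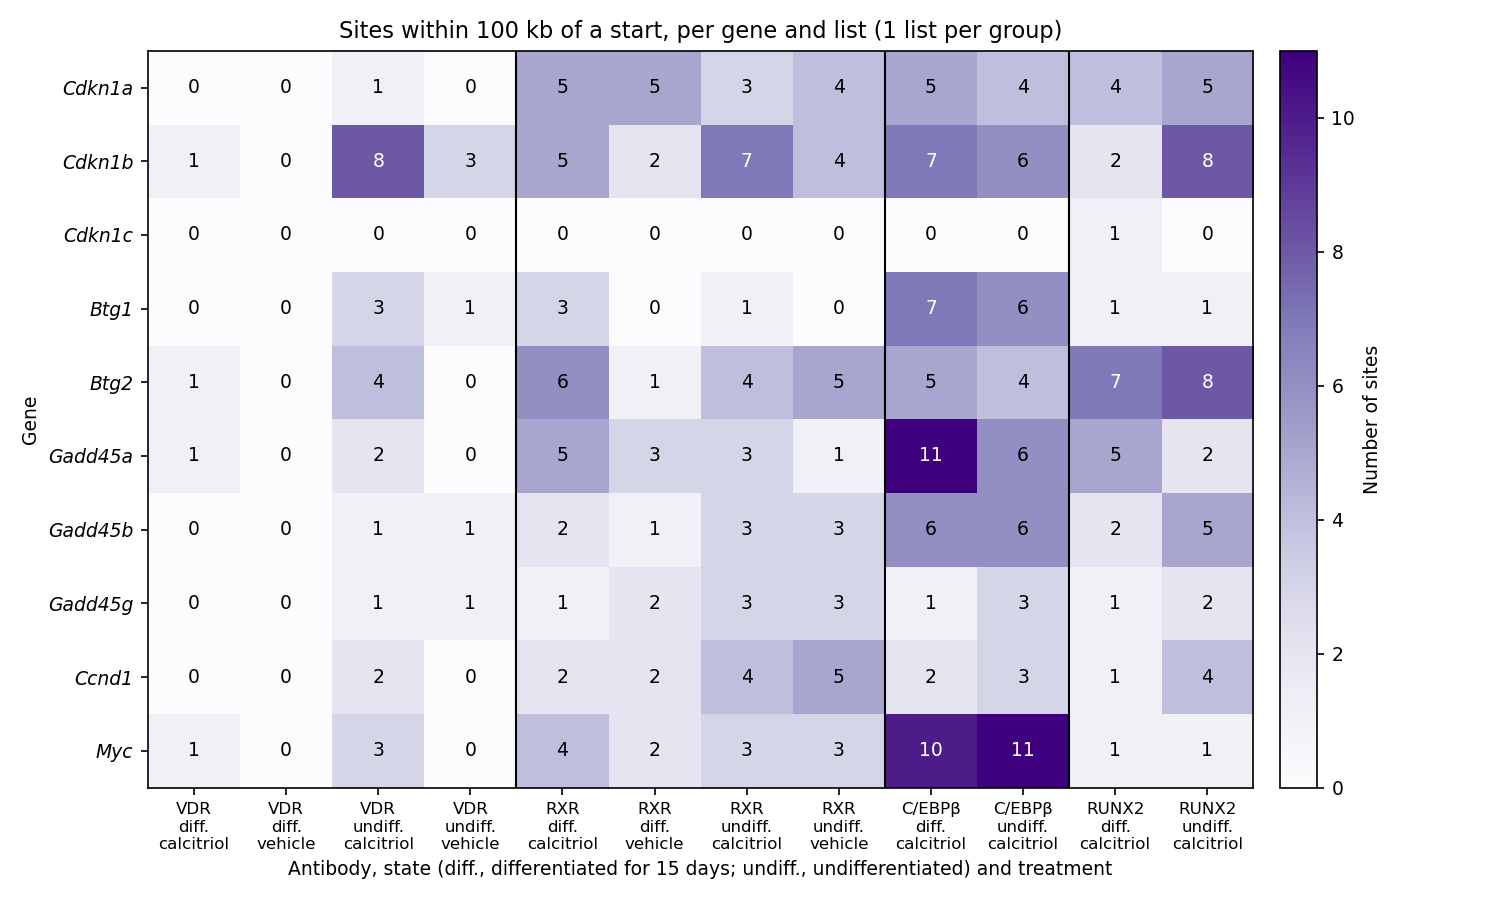
Number of transcription factor sites within 100 kb of a start for each gene (rows) in each of the 12 lists (columns, 1 list per group); darker cells hold more sites. VDR columns hold at most 1 site per gene in differentiated cells with calcitriol and up to 8 in undifferentiated cells with calcitriol, while C/EBPβ reaches 11 at Gadd45a and Myc, and the Cdkn1c row is 0 except for 1 RUNX2 site.

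Within 1 kb of a start lay 2 of the 25 calcitriol sites and 3 of the 6 vehicle sites. Those of vehicle were at +0.12 kb of Cdkn1b, -0.35 kb of Btg1 and -0.85 kb of Gadd45g. The other vehicle sites were at +6.32 kb of Gadd45b, at -76.0 kb of Cdkn1b and at +91.2 kb of Cdkn1b, nearest to the RNA helicase gene Ddx47. Vehicle sites at the Cdkn1b start and near Ddx47 were not called with calcitriol, and the other 4 were (66.7%, 95% exact Clopper-Pearson interval 22.3 to 95.7, against 83.8% of the whole vehicle list). With calcitriol, 16 of the 25 sites were over 20 kb from a start, 20 were intergenic with respect to protein-coding genes, 3 intronic and 2 exonic, and 17 had one of the 10 genes as their nearest start. The remaining 8 were nearest to Fmod, an extracellular matrix gene beside Btg2, or to Crebl2 and Gpr19 beside Cdkn1b. The exonic sites were in the coding sequence of Btg1 at +1.39 kb and in an exon of Crebl2 outside its coding sequence. Distances and places were not computed for the whole lists, so the contrast between treatments is not shown to be particular to these genes. In the whole VDR lists of undifferentiated cells, H3K4me3, a mark of active starts, overlapped 60.9% of vehicle sites and 20% of calcitriol sites. Half-sites were found in 2 of the 6 vehicle sites, in 28.7% of the whole vehicle list and in 36.9% of its flanking windows. A DR3 match was found in 1 of the 6, in 2.77% of the whole vehicle list and in 1.49% of flanking windows.

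In differentiated cells, VDR sites near these genes were few. There were 4 with calcitriol, in a list of 871, and 0 with vehicle, in a list of 274. Cdkn1b, Btg2, Gadd45a and Myc held 1 each with calcitriol, so that 4 of 10 genes had a site against 12.1% of all genes, while with vehicle 0 of 10 did, against 6.15%. The same 4 genes had more sites with calcitriol than with vehicle, none had fewer, and 6.88% of all genes had more. None of the 4 sites was within 50 kb of its gene, and for those at Btg2 and Cdkn1b another gene's start was nearer.

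Set against undifferentiated cells with the same hormone exposure, differentiated cells had fewer VDR sites near 9 of the 10 genes, more near none and the same number, 0, near Cdkn1c. Across all genes 36.1% had fewer and 0.32% had more. All 4 sites of differentiated cells overlapped a site of undifferentiated cells, as did 90.8% of the whole differentiated list. In undifferentiated cells 21 of the 25 sites had no counterpart in differentiated cells. The share called in both states was 16.0% of the undifferentiated sites near these genes (4.54 to 36.1) and 11.3% of the whole undifferentiated list (10.6 to 12.1). Vehicle sites of undifferentiated cells included the one in the Crebl2 intron and none of the other 3 shared sites. This was 1 of the 4 differentiated sites (25.0%, 0.631 to 80.6), against 41.1% of the whole differentiated list.

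The 4 sites called in both states all held a DR3 match, printed above. In undifferentiated cells with calcitriol, 5 of 25 sites had a match (20%, 6.83 to 40.7), against 14.8% of the whole list and 1.18% of flanking windows. In the list of differentiated cells the share was 4 of 4 near these genes (39.8 to 100.0), against 24.0% of the whole list and 1.03% of flanking windows. Of the 5 undifferentiated sites with a match, 4 were also called in differentiated cells, and of the 20 without a match 0 were. In the whole undifferentiated list the shares were 204 of 1035 sites with a match (19.7%) and 590 of 5965 without (9.89%). No match near these genes was exact, and 2 of the 4 and 2 of the 5 remained within 100 bp windows. Sites of the same gene share a locus, so these are few independent places.

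**Figure D2:**
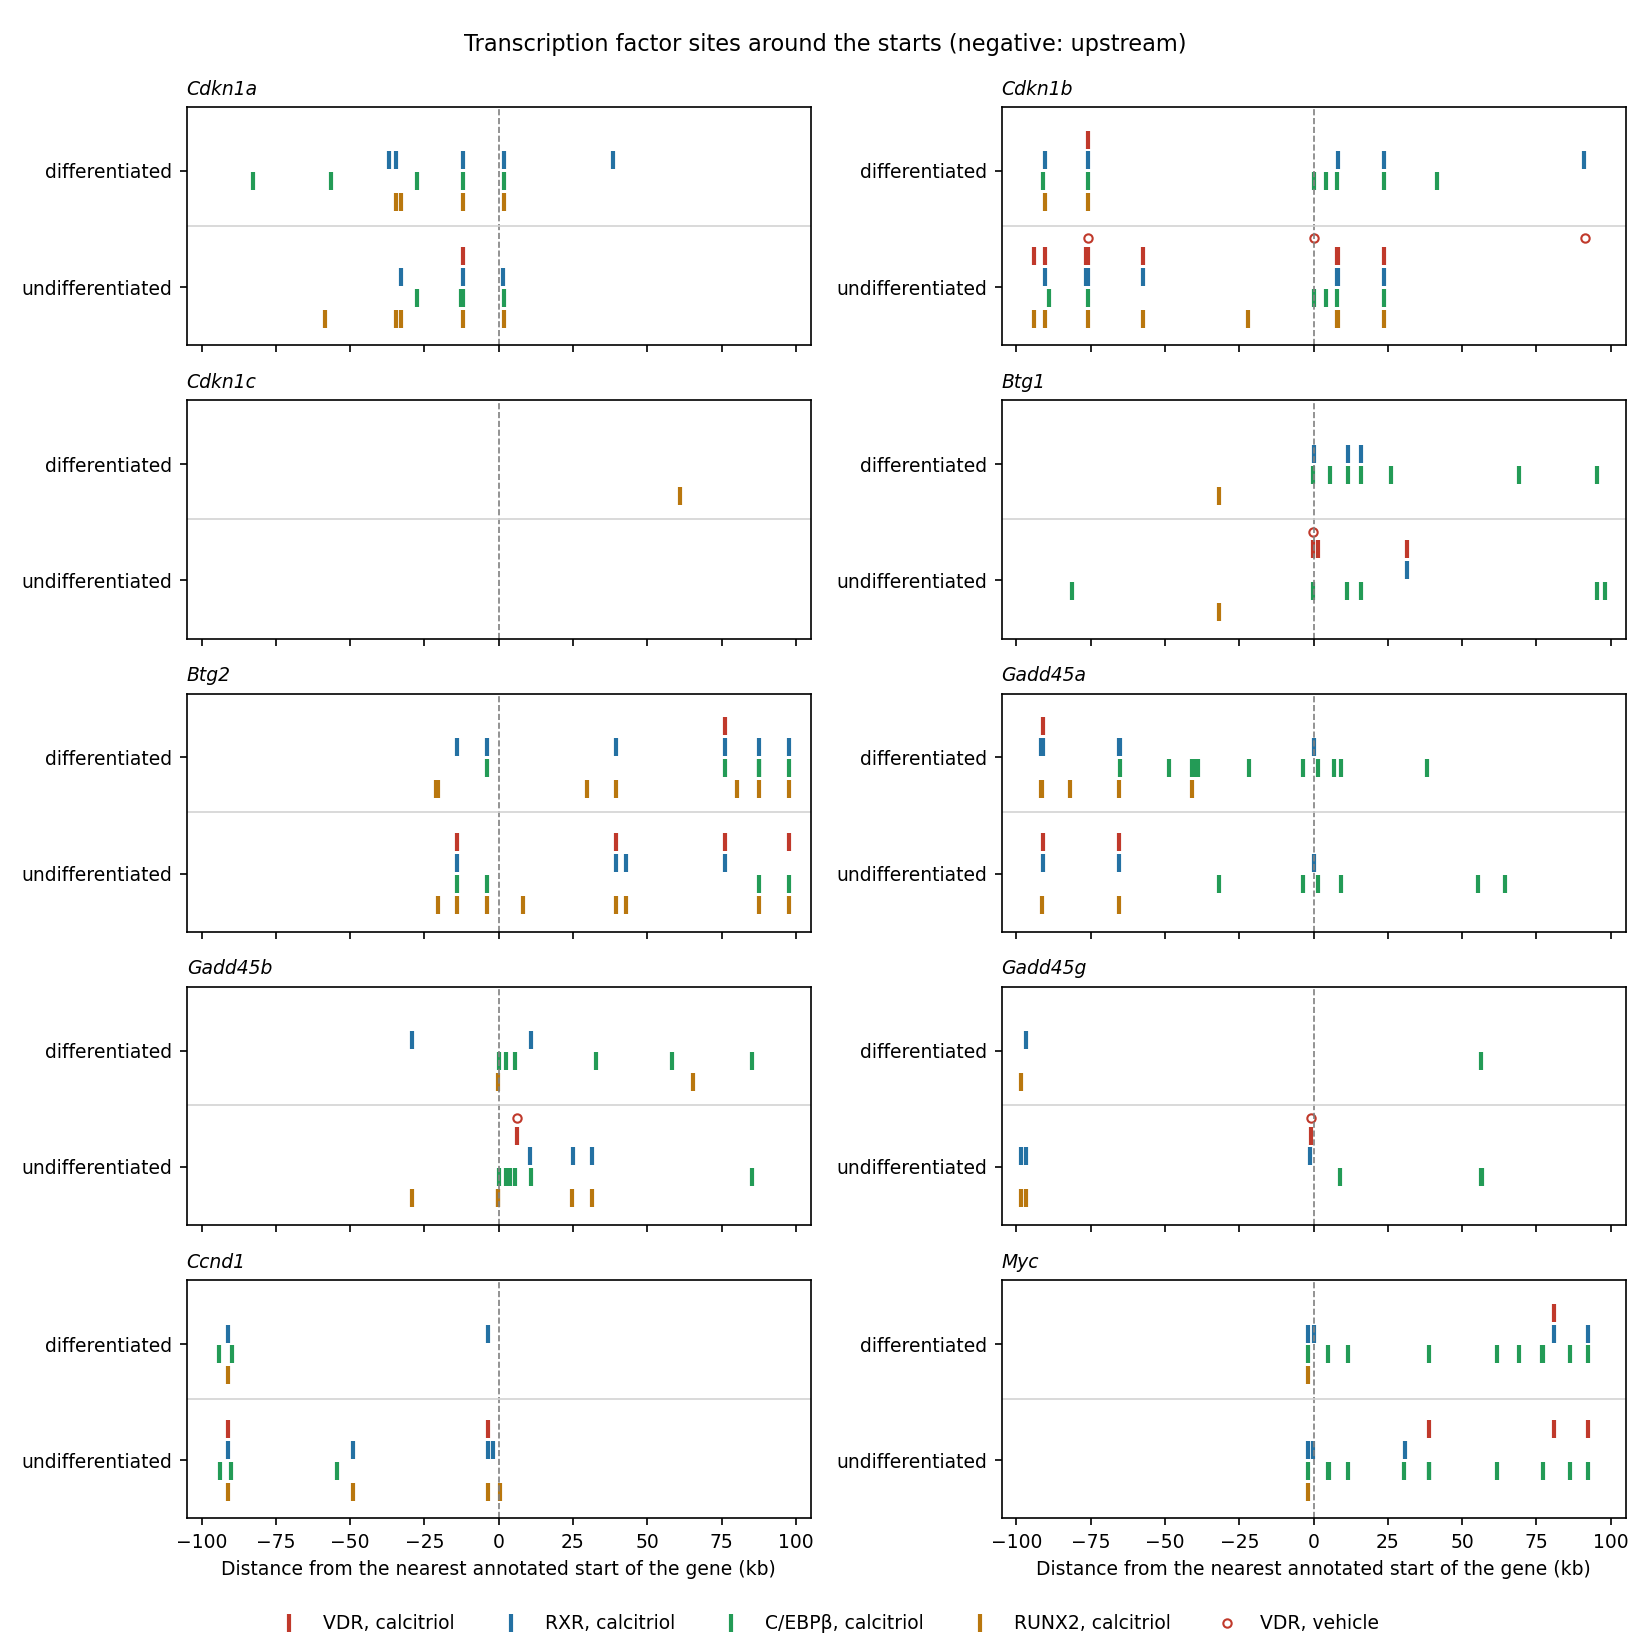
Position of each transcription factor site relative to the nearest annotated start of its gene (kb, negative upstream, in the direction of transcription), with differentiated cells in the upper and undifferentiated cells in the lower lane of each panel; ticks are calcitriol sites coloured by factor and circles are VDR vehicle sites. VDR ticks in differentiated cells stand at -76.0 kb of Cdkn1b, +76.1 kb of Btg2, -91.2 kb of Gadd45a and +81.0 kb of Myc, each with a VDR tick at the same place in undifferentiated cells.

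VDR sites near these genes coincided with other factors at shares whose intervals contain those of the whole list. Of the 25 sites of undifferentiated cells with calcitriol, 17 overlapped an RXR site of the same cells (68.0%, 46.5 to 85.1, against 60.0% of the whole list), 13 a RUNX2 site (52.0%, 31.3 to 72.2, against 54.0%) and 8 a C/EBPβ site (32.0%, 14.9 to 53.5, against 44.1%). All 3 partners were called at 4 sites (16.0%, against 24.0% of the list), 2 at 9 (36%, against 30.4%), 1 at 8 (32.0%, against 25.4%) and none at 4 (16.0%, against 20.3%). The sites with all 3 were at -11.95 kb of Cdkn1a, -14.2 kb of Btg2, and -76.0 kb and +7.98 kb of Cdkn1b. None of the 3 VDR sites of Myc overlapped an RXR site called in undifferentiated cells with calcitriol. In differentiated cells all 4 VDR sites overlapped RXR, against 66.0% of the whole list, 2 overlapped C/EBPβ, against 30.7%, and 2 RUNX2, against 33.5%. The Myc site had RXR as its sole partner.

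H4K5ac and H3K4me1 covered nearly all of these VDR sites, as they did in the whole lists. In undifferentiated cells H4K5ac regions overlapped 25 of 25, against 97.6% of the whole list, H3K4me1 24, against 96.3%, H3K9ac 19, against 60.6%, and H3K36me3 11, against 29.8%. H3K4me3 regions overlapped 11. For this mark of active starts the share was 44.0% (24.4 to 65.1) near these genes and 20% (19.1 to 20.9) in the whole list. The 11 sites with H3K4me3 were spread over 7 genes, with 4 at Cdkn1b, 2 at Btg1 and 1 each at Btg2, Gadd45b, Gadd45g, Ccnd1 and Myc. Several of them can lie in the same region, so the interval is too narrow by an unknown amount. The higher share was not limited to VDR. In undifferentiated cells H3K4me3 overlapped 41.9% of RXR sites near these genes with calcitriol (24.5 to 60.9, against 24.2% of the list). With vehicle it overlapped 50.0% (30.6 to 69.4, against 25.6%). In differentiated cells H4K5ac and H3K4me1 covered all 4 VDR sites, against 94.0% and 93.2% of the whole list. H3K9ac and H3K36me3 covered 2 each, against 80.0% and 19.1%, and H3K4me3 none, against 35.0%. The 4 shared sites had no H3K4me3 in undifferentiated cells either.

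**Figure D3:**
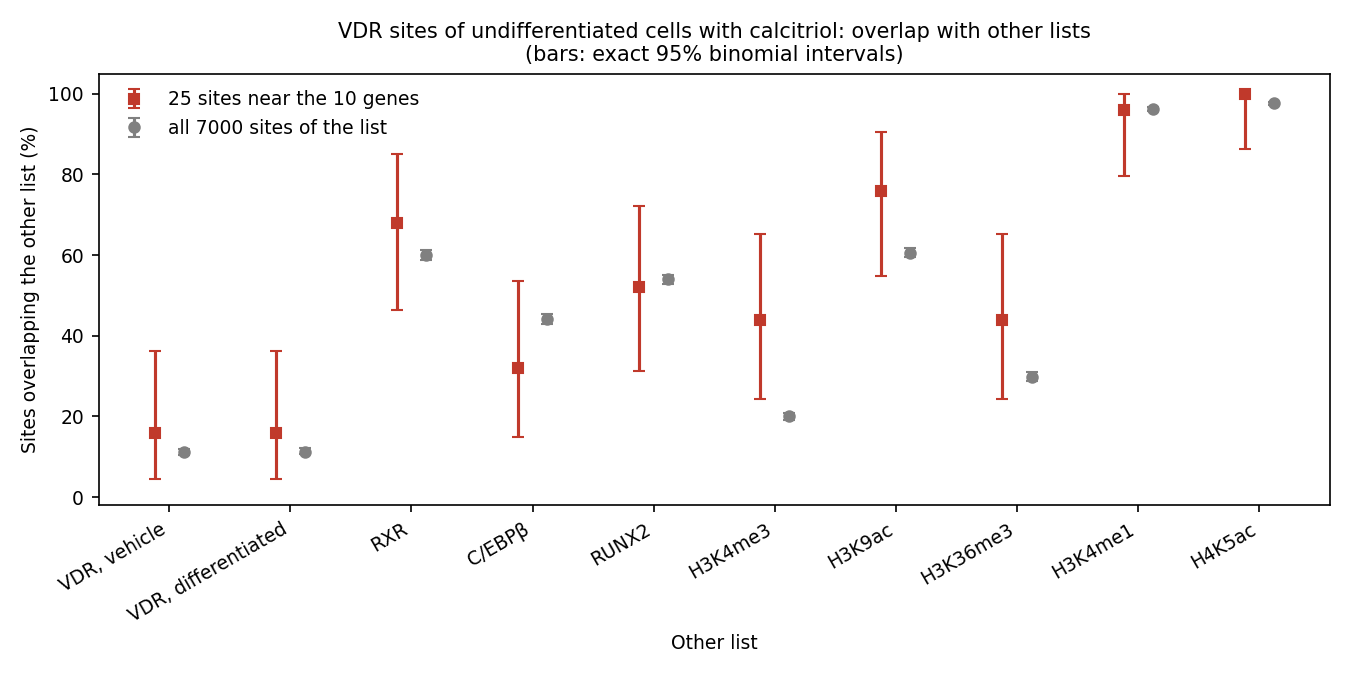
Share of VDR sites of undifferentiated cells with calcitriol (per cent, vertical axis) that overlap each other list; squares are the 25 sites near the 10 genes, circles all 7000 sites of the list, and bars exact 95% binomial intervals. For most lists the bar of the 25 sites spans the circle, and for H3K4me3 the square is at 44.0% and the circle at 20%.

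Among the kinase inhibitors, Cdkn1a had RXR, C/EBPβ and RUNX2 sites within 100 kb in both states and a single VDR site. It held 5 RXR sites with calcitriol and 5 with vehicle in differentiated cells, and 3 and 4 in undifferentiated cells. C/EBPβ was at 5 sites in differentiated and 4 in undifferentiated cells, and RUNX2 at 4 and 5. The position found in the most lists, at -11.95 kb, was called in 9 of the 12 factor lists, namely all 4 RXR lists, both C/EBPβ and both RUNX2 lists, and that of VDR in undifferentiated cells with calcitriol. A position at +1.65 kb in an intron of Cdkn1a was in 8 lists, the same ones without VDR. Positions at -34.5, -32.8 and -27.4 kb were also called in both states, in fewer lists, and were nearest to the neighbouring gene Srsf3. Of the 11 positions formed here by merging overlapping factor sites, 3 were nearest to Cdkn1a itself. Merging joins chains of overlapping sites, so factors at the same merged position need not all overlap each other. No VDR list of differentiated cells included any of these positions.

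Cdkn1b held 8 VDR sites in undifferentiated cells with calcitriol, the most of the 10 genes within 100 kb. Of these, 3 were nearest to Cdkn1b itself, as many as at Btg1 and at Myc, and the others were nearest to Crebl2 or Gpr19. Its RXR sites numbered 5 with calcitriol and 2 with vehicle in differentiated cells, against 7 and 4 in undifferentiated cells. C/EBPβ was at 7 sites in differentiated and 6 in undifferentiated cells, while RUNX2 was at 2 in differentiated cells and 8 in undifferentiated cells, a count of RUNX2 sites that 2.87% of all genes reached. Both RUNX2 sites of differentiated cells, at -90.3 kb and -75.9 kb, were nearest to Crebl2 and were also called in undifferentiated cells. The position in the Crebl2 intron was called in 11 of 12 lists, all but VDR in differentiated cells with vehicle, more than any other of the 114 positions that the factor sites near these genes formed when overlapping sites were merged. Of those positions 47 were called in a single list. Closer to the gene, merged positions at +8.09 kb and +23.7 kb carried VDR, RXR, RUNX2 and C/EBPβ in undifferentiated cells, and RXR and C/EBPβ without VDR or RUNX2 in differentiated cells. The VDR site at the second of these, at +23.62 kb, did not itself overlap sites of all the other factors.

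Cdkn1c, an imprinted gene, had almost no factor sites and no mark at its start. Its window held a single factor site across all 12 lists, a RUNX2 site of differentiated cells at +61.1 kb in an intron of Kcnq1. None of the 5 histone marks had a region within 1 kb of its start in either state. Its 200.0 kb window was covered by H3K4me3 over 2.03 kb in differentiated and 4.58 kb in undifferentiated cells, by H3K4me1 over 22.6 and 11.85 kb, and by H3K36me3 over 46.6 and 48.1 kb. The H3K36me3 lengths are above the medians of the 10 genes, 36.75 and 41.9 kb.

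The BTG genes encode proteins that restrain proliferation. Both were among the 6 genes described here with more RXR sites with calcitriol than with vehicle in differentiated cells. Across all genes 26.9% had more. Btg2 had 6 RXR sites with calcitriol and 1 with vehicle in differentiated cells, and 4 with calcitriol and 5 with vehicle in undifferentiated cells. The 5 differentiated sites seen with calcitriol alone lay at -3.92, -14.2, +76.1, +87.5 and +97.8 kb. Of these, 3 coincided with a VDR site of undifferentiated cells and 1, at +76.1 kb, with a VDR site of differentiated cells. Btg2 also had 7 RUNX2 sites in differentiated and 8 in undifferentiated cells, of which 4 were shared, and 9 of its 12 merged positions were nearest to another gene. Btg1 had 3 RXR sites with calcitriol and 0 with vehicle in differentiated cells, at -0.02, +11.5 and +16.0 kb, and 1 and 0 in undifferentiated cells. None of the 3 coincided with VDR in either state. Its merged start position held C/EBPβ in both states, RXR in differentiated cells with calcitriol, and VDR in undifferentiated cells with either treatment. The RXR site there did not overlap the VDR site called with calcitriol.

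The GADD45 genes encode small proteins that respond to stress and DNA damage, and they differed from one another. Gadd45a had 11 C/EBPβ sites in differentiated and 6 in undifferentiated cells, of which 3 were shared, at +1.58, +9.26 and -3.64 kb. The 8 that were called in differentiated cells alone ran between -65.1 and +38.3 kb, and 3 of them clustered between -40.8 and -39.0 kb. Counts of 11 or more C/EBPβ sites in differentiated cells were reached by 1.14% of all genes. RUNX2 was also at more sites there, 5 in differentiated and 2 in undifferentiated cells. RXR was called at its start, in an exon outside the coding sequence, in all 4 RXR lists, with 5 sites with calcitriol and 3 with vehicle in differentiated cells and 3 and 1 in undifferentiated cells. All of its 18 merged positions were nearest to Gadd45a itself.

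Gadd45b had 6 C/EBPβ sites in each state and a start position with C/EBPβ and RUNX2 in both. Its RXR sites were 2 with calcitriol and 1 with vehicle in differentiated cells, and 3 with either treatment in undifferentiated cells. Its VDR site, at +6.30 kb, was called in undifferentiated cells with calcitriol and with vehicle, inside H3K4me3. An RXR site called in undifferentiated cells with vehicle overlapped it, and no other factor did. At Gadd45g, VDR was called just upstream of the start in undifferentiated cells with either treatment, and RXR overlapped it with calcitriol, while the RXR site called with vehicle was at -0.09 kb. In differentiated cells neither was called near its start, and its remaining RXR and RUNX2 sites lay at -98.4 and -96.9 kb in an intron of Sema4d.

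The growth-promoting genes were bound too. Ccnd1 had 2 RXR sites with calcitriol and 2 with vehicle in differentiated cells, and 4 and 5 in undifferentiated cells. Both differentiated RXR sites, at merged positions -3.60 kb and -91.15 kb, coincided with the only VDR sites of Ccnd1, which were called in undifferentiated cells with calcitriol. RUNX2 was at 1 site in differentiated and 4 in undifferentiated cells. Myc had 10 C/EBPβ sites in differentiated and 11 in undifferentiated cells, 8 of which were shared, and 1 RUNX2 site in each state. Its position at -1.90 kb carried RXR in all 4 RXR lists and C/EBPβ and RUNX2 in both states, without VDR. VDR lay far downstream of Myc, at +81.0 kb in differentiated cells and at +38.9, +81.0 and +92.2 kb in undifferentiated cells. The positions at +81.0 and +92.2 kb are inside Pvt1. RXR was called with VDR at +81.0 kb in differentiated cells with calcitriol and was not called there in undifferentiated cells.

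Over the 10 genes, RXR had 33 sites with calcitriol and 18 with vehicle in differentiated cells, and 31 and 28 in undifferentiated cells. Lists held 8126 and 4815 sites in differentiated cells, and 7591 and 7834 in undifferentiated cells. At least 1 RXR site was near 9 genes with calcitriol and 8 with vehicle in differentiated cells, against 43.8% and 33.6% of all genes, and near 9 and 8 in undifferentiated cells, against 43.9% and 44.3%. With calcitriol, 6 genes had more RXR sites than with vehicle and 1 had fewer in differentiated cells, where 26.9% of all genes had more. In undifferentiated cells 3 genes had more and 3 had fewer, where 15% of all genes had more. The share of all genes with fewer sites with calcitriol than with vehicle was not computed for RXR or VDR. In differentiated cells 17 of the 33 calcitriol sites were also called with vehicle (51.5%, 33.5 to 69.2, against 52.6% of the list). Of the 18 vehicle sites of differentiated cells, 17 were kept with calcitriol (94.4%, 72.7 to 99.9, against 88.6% of the list), and 16 were added. Of those 16, 2 had VDR in the same cells and 6 had VDR in undifferentiated cells. Over all 33 RXR sites, 4 had VDR in the same cells (12.1%, 3.4 to 28.2, against 7.09% of the RXR list) and 15 had VDR in undifferentiated cells (45.5%, 28.1 to 63.6, against 46.8%). In undifferentiated cells 11 RXR sites were seen with calcitriol alone, 7 of them with VDR, and 9 with vehicle alone. There, 64.5% of the calcitriol sites were also called with vehicle (45.4 to 80.8, against 69.3% of the list). Of the vehicle sites, 67.9% were also called with calcitriol (47.6 to 84.1, against 67.3%). For RXR sites seen with calcitriol alone, the share with VDR in the whole lists was not computed. The VDR lists with calcitriol held 871 sites in differentiated and 7000 in undifferentiated cells. The VDR counts of added RXR sites are therefore not shown to be particular to the 10 genes. Between states with calcitriol, 5 genes had more RXR sites in differentiated cells and 4 had fewer, with 17.8% of all genes in either direction. The totals were 2 sites higher in differentiated cells in 100 kb windows, equal in 200 kb windows, and lower (-2) in 50 kb windows.

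C/EBPβ had 54 sites in differentiated and 49 in undifferentiated cells, near 9 genes in each state, against 61.1% and 65.9% of all genes. More C/EBPβ sites were counted in differentiated cells at 5 genes and fewer at 3, whereas across all genes 15.1% had more and 32% had fewer. The 5 additional sites in differentiated cells equal the difference at Gadd45a, and the totals differed the other way in 200 kb windows (-5) and when each site was given to its nearest start (-1). RUNX2 had 25 sites in differentiated and 36 in undifferentiated cells, near 10 and 9 genes, against 46.5% and 59.6% of all genes. More RUNX2 sites were counted in differentiated cells at 2 genes, Cdkn1c and Gadd45a, and fewer at 6, against 8.72% and 42.1% of all genes. C/EBPβ sites also called in the other state made up 61.1% of the differentiated sites (46.9 to 74.1, against 70.1% of the list) and 67.3% of the undifferentiated sites (52.5 to 80.1, against 64.7%). For RUNX2 the shares were 72.0% (50.6 to 87.9, against 65.5%) and 50.0% (32.9 to 67.1, against 43.1%).

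The DNA under these sites held the factors' own motifs at about the rate of the lists. An exact C/EBP match, TTACNNAA or TTGCNNAA on either strand, was found at 28 of 54 C/EBPβ sites in differentiated cells (51.9%, against 56.4% of the list and 16.9% of flanking windows) and at 28 of 49 in undifferentiated cells (57.1%, against 53.2% and 16.7%). A RUNX match, TGTGGTT with C also allowed as the third or the last base, was found at 16 of 25 RUNX2 sites in differentiated cells (64.0%, against 55.9% and 8.96%) and at 18 of 36 in undifferentiated cells (50.0%, against 52.4% and 8.85%). The Cdkn1a site printed above held neither motif.

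Histone marks of active chromatin were present at the starts of all of these genes except Cdkn1c. In each state each of the 5 marks had a region within 1 kb of a start at 9 of the 10 genes. Across all genes in differentiated and undifferentiated cells the shares were 43.3% and 35.9% for H3K4me3, 52.6% and 50.6% for H3K9ac, 54.7% and 55.6% for H4K5ac, 58.8% and 56.9% for H3K4me1, and 35.1% and 38.6% for H3K36me3. H3K36me3, which is deposited along transcribed gene bodies, overlapped the start itself at 4 genes in differentiated and 5 in undifferentiated cells. H3K4me1 overlapped the start itself at 6 genes in each state, and H3K4me3, H3K9ac and H4K5ac at 9. Within the 100 kb windows every gene had at least 1 region of each mark in each state. All genes had one in 72.3% and 66.3% of cases for H3K4me3, 79.8% and 78.2% for H3K9ac, 80.9% and 83.2% for H4K5ac, 84.3% and 84% for H3K4me1, and 74.2% and 75.4% for H3K36me3, in differentiated and undifferentiated cells.

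H3K4me3 regions at the starts were narrower in differentiated cells at 8 of the 9 genes. Their widths in differentiated and undifferentiated cells were 2.39 and 16.35 kb at Btg2, 4.28 and 22.1 kb at Gadd45b, 6.09 and 21.7 kb at Btg1, 3.80 and 15.3 kb at Gadd45g, 3.26 and 12.3 kb at Gadd45a, and 3.97 and 14.95 kb at Ccnd1. Cdkn1a had 3.53 and 7.04 kb and Myc 7.39 and 13.4 kb. Cdkn1b was the exception, with 14.45 kb in differentiated and 7.52 kb in undifferentiated cells. The ratio of differentiated to undifferentiated width had a median of 0.266 and a range of 0.146 to 1.92. Over all genes with a region at a start, the median width was 2.32 kb in differentiated and 5.46 kb in undifferentiated cells, against 3.97 and 14.95 kb for the 9 genes, so H3K4me3 regions were narrower over the whole list as well. The summed width of all H3K4me3 regions was 22.2 Mb in differentiated and 51.3 Mb in undifferentiated cells.

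Within the windows of the 10 genes, 2011.3 kb in all, H3K4me3 covered 80.1 kb in differentiated and 237.7 kb in undifferentiated cells, less in differentiated cells at 10 of 10 genes. H3K9ac went the other way and covered 298.4 and 207.3 kb, more in differentiated cells at 9 of 10 genes, while its whole list summed to 88.7 and 67.0 Mb. Btg2 had 58.75 kb of H3K9ac in differentiated and 37.7 kb in undifferentiated cells, and Gadd45a 19.6 and 5.45 kb. Cdkn1c was the gene with less, 3.85 and 4.39 kb. H3K36me3 covered 390.2 and 473.1 kb, less in differentiated cells at 9 of 10 genes, with whole lists of 323.3 and 368.7 Mb. H4K5ac covered 767.8 and 804.2 kb, with whole lists of 283.3 and 339.5 Mb. H3K4me1 covered 836.6 and 797.7 kb, with whole lists of 339.0 and 342.3 Mb. The share of all genes that changed the same way was not computed for any mark. These counts of genes are therefore not shown to be particular to the 10. The H4K5ac regions at the starts were wide in both states, with a median of 31.7 kb in differentiated and 27.3 kb in undifferentiated cells, against 5.14 and 6.38 kb over all genes. That of Cdkn1a was 56.7 and 27.3 kb and that of Ccnd1 19.3 and 76.2 kb.

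**Figure D4:**
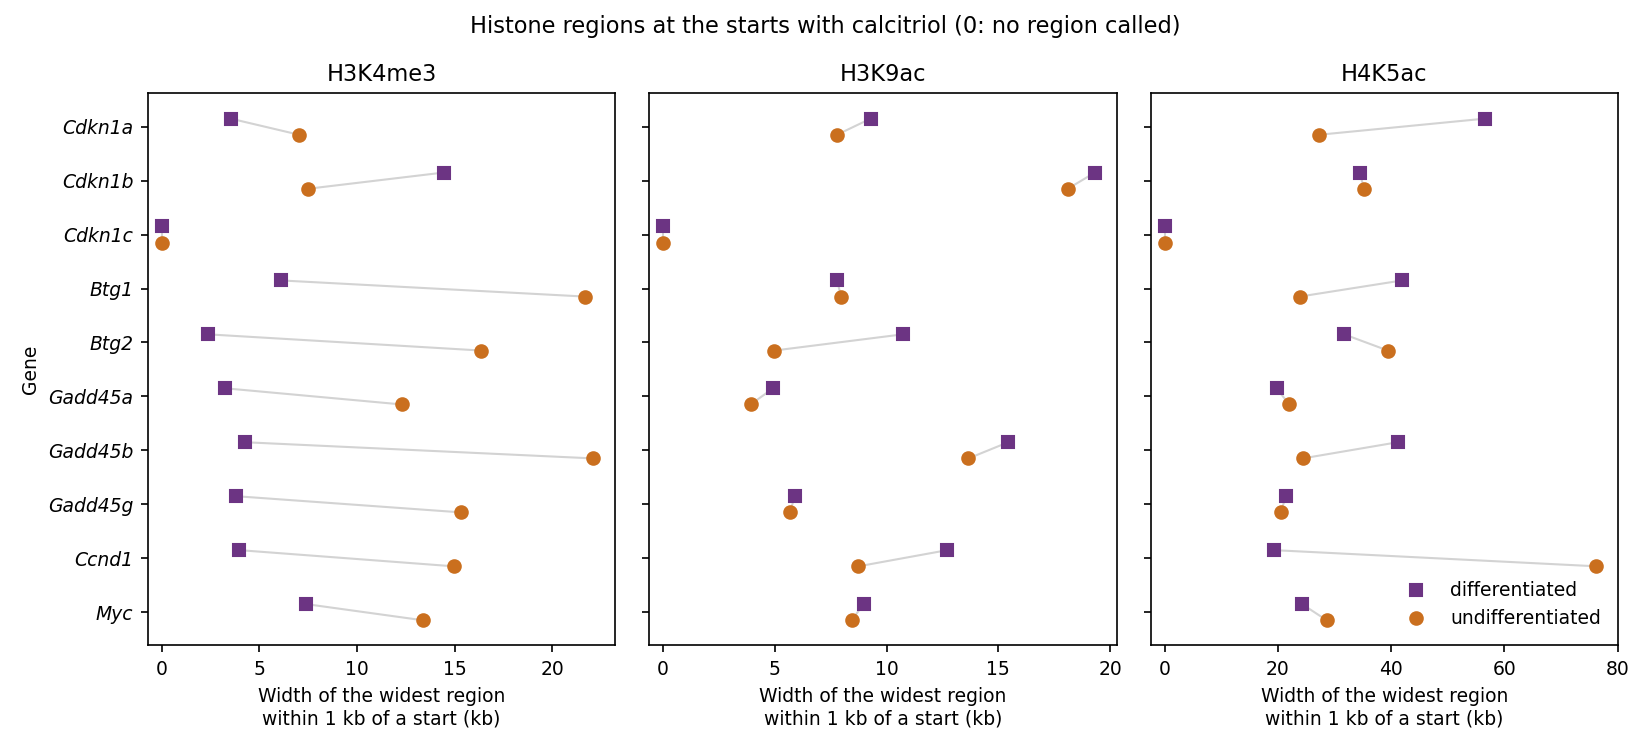
Width of the widest region within 1 kb of a start (kb, horizontal axes) for H3K4me3, H3K9ac and H4K5ac at each gene, with differentiated cells as squares above undifferentiated cells as circles; 0 means that no region was called. H3K4me3 squares lie left of their circles at all marked genes but Cdkn1b (14.45 and 7.52 kb), H3K9ac squares lie at or right of theirs at 8 of 9 genes, and H4K5ac shows both directions.

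Other cell cycle genes had VDR sites in undifferentiated cells at about the rate of all genes. Of 31 further cyclins, kinases, inhibitors and regulators, 12 had a VDR site in undifferentiated cells with calcitriol (38.7%, against 40.9% of all genes), with 3 sites each at Ccnd3, encoding cyclin D3, and Cdk4, its kinase partner, as the highest counts. In differentiated cells with calcitriol Ccnd3 alone of the 31 had a site, 3.23% against 12.1% of all genes. The median count in undifferentiated cells with calcitriol was 2.0 for the 10 genes and 0.0 for the 31 and for all genes. Of the 7 genes of the AP-1 family, immediate early transcription factors, 4 had a VDR site with calcitriol in differentiated cells and 6 in undifferentiated cells, where their median was 2.0 and the highest count 7, at Fosl2. These lists were not tested against each other. The genes whose site counts over the 12 lists were most like those of Cdkn1b were Hist4h4, H2afj and Tacc2, at Euclidean distances of 1.39, 1.45 and 1.48 on the log2(count + 1) scale. Hist4h4 and H2afj had the same VDR counts as each other, 1 in differentiated and 12 in undifferentiated cells with calcitriol, and Tacc2 had 2 and 7. The counts of Hist4h4 and H2afj differed only for RXR in differentiated cells with calcitriol, 7 and 8. Whether their windows hold the same sites was not examined, so they may not be separate examples.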

How the data were processed

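ChIP-seq regions were read from 22 deposited lists, 1 for each antibody, state and treatment, each taken as an overlap of the authors' replicates because region names count merged peaks (70.4% to 99.6% of regions were merged from 2). Per the submitters' processing notes, the authors used Bowtie and HOMER and the mm9 build; their versions and peak thresholds were not given in the sources used here. The score deposited by the authors was 0 in the transcription factor lists, whose regions were 201 bp wide; in the histone lists its meaning is not given, and it entered 1 alternative, without the 25% of regions that scored lowest.

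Regions on chromosomes 1 to 19 and X were placed on the mm9 sequence and the GENCODE vM1 annotation with Python 3.11.15, pandas 2.3.3 and pysam 0.24.0; 96 others were left out. A region was near a gene when its centre lay within 100 kb of an annotated start, and lists shared a site that overlapped by at least 1 bp. Motifs were searched in 200 bp on both strands, and shares carry exact Clopper-Pearson 95% intervals from scipy 1.17.1. Counting, overlap and motif steps were tested on simulated regions. No replicate lists were used, so no tests were made. The genes and lists were chosen with earlier results of these data known. All 10 genes were named; of the other cell cycle genes, those with the most VDR sites with calcitriol in undifferentiated cells were named, and a tie for the third place was left unnamed. Likeness to Cdkn1b was planned over 8 factor lists and computed over 12, since that is their number. Alternatives covered the window, the assignment of sites, the starts, the overlap, the score and the motif settings.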

Additional observations from a re-analysis of the deposited data

Results flagged for a closer look

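RXR near Btg2 differed between the states in the direction of its response to calcitriol. Calcitriol minus vehicle was 5 sites in differentiated cells and -1 site in undifferentiated cells. With each site given to its nearest start, Btg2 had 2 RXR sites with calcitriol and 0 with vehicle in differentiated cells, and 1 and 1 in undifferentiated cells, so that the opposite direction was no longer seen. In 100 kb windows, differentiated minus undifferentiated was 2 sites with calcitriol and -4 sites with vehicle. At Myc the same difference was 1 site with calcitriol and -1 site with vehicle, and over all 10 genes it was 2 sites with calcitriol and -10 sites with vehicle. Each group had 1 list, so these opposite directions were not tested. The RXR list as a whole held 8126 sites with calcitriol and 4815 with vehicle in differentiated cells, and 7591 and 7834 in undifferentiated cells, and the part of list length in these differences was not tested.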

How the results depend on the processing

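No paired analysis was possible because each group was represented by 1 list with no replicate number. The 53 counts and differences were recomputed under 148 alternatives, of which 89 left the value within 1.5 times and in the same direction, 55 moved it further and 4 turned it round. Using 1 start per gene, any overlap of histone regions with the window, centres within 500 bp as shared, or leaving out the lowest 25% of histone regions by score moved nothing beyond that. Counts scaled with the window. In 50 kb windows VDR had 0 sites with calcitriol in differentiated cells and 13 in undifferentiated cells, RXR 19 with calcitriol and 11 with vehicle in differentiated cells, C/EBPβ 32 in differentiated and 30 in undifferentiated cells, and RUNX2 12 in differentiated cells. In 200 kb windows VDR had 8 and 47, RXR 61 with calcitriol and 36 with vehicle in differentiated cells and 61 and 62 in undifferentiated cells, C/EBPβ 87 and 92, and RUNX2 44 and 68 in differentiated and undifferentiated cells. With each site given to its nearest start, VDR in differentiated cells had 2, RXR 21 with calcitriol and 11 with vehicle in differentiated cells and 17 with vehicle in undifferentiated cells, and RUNX2 12 in differentiated and 20 in undifferentiated cells. In 50 kb windows the histone regions numbered 27 and 30 for H4K5ac, 36 and 27 for H3K9ac, 52 and 47 for H3K4me1, and 16 and 19 for H3K36me3 in differentiated and undifferentiated cells. H3K36me3 regions that overlap the start itself were at 4 genes in differentiated and 5 in undifferentiated cells.

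VDR calcitriol minus vehicle was 0, 8 and 2 sites in differentiated cells (50 kb, 200 kb, nearest start), and 9 and 39 in undifferentiated cells (50 and 200 kb). VDR differentiated minus undifferentiated was -13 at 50 kb and -39 at 200 kb. RXR calcitriol minus vehicle was 8 and 25 in differentiated cells at 50 and 200 kb; in undifferentiated cells, 3 in the report, it was 1 at 50 kb and turned to -1 at 200 kb. RXR differentiated minus undifferentiated with calcitriol, 2 in the report, turned to -2 at 50 kb and was 0 at 200 kb and by nearest start; with vehicle it was -26 at 200 kb and -6 by nearest start. For C/EBPβ, 5 in the report, it was 2 at 50 kb and turned to -5 at 200 kb and -1 by nearest start, and for RUNX2 it was -24 at 200 kb. With an overlap of at least 100 bp, VDR sites shared with C/EBPβ in undifferentiated cells numbered 4 and those shared with RUNX2 in differentiated cells 1. VDR sites with a DR3 match numbered 0 in each state when no mismatch was allowed, and 2 in each state in 100 bp windows. The causes were not tested. Depth is unknown, and without replicate lists a site missing from a list cannot be told from one that was below the authors' threshold.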

Other observations

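RXR sites near these genes coincided with RUNX2 or C/EBPβ at shares whose intervals contain those of the whole list. RXR sites with calcitriol that overlapped RUNX2 numbered 13 of 33 in differentiated cells (39.4%, 95% interval 22.9 to 57.9, against 44.1% of the list) and 20 of 31 in undifferentiated cells (64.5%, 45.4 to 80.8, against 60.8%). Those that overlapped C/EBPβ numbered 14 of 33 in differentiated cells (42.4%, 25.5 to 60.8, against 39.1% of the list) and 8 of 31 in undifferentiated cells (25.8%, 11.9 to 44.6, against 40.1%). These shares were not tested.

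VDR sites of undifferentiated cells near these genes overlapped RXR sites of differentiated cells at shares whose intervals contain those of the whole list. Of the 25 VDR sites of undifferentiated cells with calcitriol, 15 overlapped an RXR site of differentiated cells with calcitriol (60.0%, 38.7 to 78.9, against 54.3% of the list) and 4 a VDR site of those cells. The 15 can include those 4, and the list share without such sites was not computed. With vehicle, RXR was called in differentiated cells at 9 of the 25 (36%, 18.0 to 57.5, against 32.4% of the list).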
